A study of Mus musculus with 2 samples.

Results

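The data describe 30 genes of cholesterol synthesis, uptake and SREBP control, of 31053 genes counted in perfused mouse liver. The members were chosen by name, by their known place in the pathway, and no threshold on a measured value was applied. They comprise 18 genes of the synthesis steps, 4 genes of SREBP control and 8 genes of uptake and transport, and all 30 were found in the count table.

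Hepatocytes isolated by liver perfusion from C57BL/6 mice were profiled by droplet-based single-cell RNA sequencing, with 1 library for each of 2 genotypes. The control library came from a LaptTA;WT liver, which carries the tetracycline transactivator (tTA) under the liver-restricted LAP promoter and no tetYAP transgene. The tetYAP 4W library came from a LaptTA;tetYAP liver, in which tTA drives a constitutively active YAP mutant from the Col1A1 locus. Both genotypes therefore carry tTA, and doxycycline in the food keeps the transgene off. According to the methods, mice were moved to a regular diet at 4 weeks of age, and the library was made after 4 weeks of induction. The age and diet of the control animal are not given in the sources used here. Since each group has 1 library, no test between groups was possible, and all intervals below are exact 95% intervals that cover counting error only.

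Cholesterol is made from acetyl-CoA through mevalonate, isoprenoids and squalene to lanosterol, which is then trimmed and reduced to cholesterol. The liver is the main organ that makes, takes up and exports it. When membrane sterols are low, the escort protein SCAP carries the membrane-bound factor SREBP-2 to the Golgi, where it is cleaved and freed to switch on synthesis and uptake genes through sterol regulatory elements in their promoters. When sterols are high, INSIG proteins hold SCAP and its cargo in the endoplasmic reticulum. Transport genes bring lipoprotein cholesterol into cells, free it in lysosomes, move it between membranes and export it.

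Promoter sequences are shown because SREBP-2 acts there, together with the CCAAT-binding factor NF-Y. RefSeq promoter windows of GRCm38.p6, the assembly also known as mm10, matched 24 of the 30 members; Fdps, Fdft1, Sqle, Npc1, Scarb1 and Stard4 were not matched. The 250 bases before each annotated start were searched on both strands for the sterol regulatory element TCACNCCAC and for the CCAAT box CCAAT, and the matches printed below do not overlap. The CCAAT box was found for 14 of 15 synthesis genes (93.3%), 3 of 4 SREBP control genes and 3 of 5 uptake and transport genes, against 37.5% of all 27025 genes with a window. The sterol regulatory element in this exact form was found only for Hmgcs1 among the 24 members, beginning at base -137 from the start, and for 1.22% of all genes. Such matches describe the letters and do not show binding. Windows are printed for 4 genes the results below turn on, 5′ to 3′ on the strand of the gene, with matches on either strand in capitals. Hmgcs1 lies at chr13:119690351-119708260 (window chr13:119690101-119690350, plus strand), Idi1 at chr13:8885606-8892396 (window chr13:8885356-8885605, plus strand), Insig1 at chr5:28071412-28078662 (window chr5:28071162-28071411, plus strand) and Lrp1 at chr10:127538157-127621148 (window chr10:127621149-127621398, minus strand).
Hmgcs1: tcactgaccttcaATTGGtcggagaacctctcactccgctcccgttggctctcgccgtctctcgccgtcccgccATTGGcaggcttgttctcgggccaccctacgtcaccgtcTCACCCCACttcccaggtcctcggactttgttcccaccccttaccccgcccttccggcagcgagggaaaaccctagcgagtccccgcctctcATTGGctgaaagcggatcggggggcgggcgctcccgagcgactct
Idi1: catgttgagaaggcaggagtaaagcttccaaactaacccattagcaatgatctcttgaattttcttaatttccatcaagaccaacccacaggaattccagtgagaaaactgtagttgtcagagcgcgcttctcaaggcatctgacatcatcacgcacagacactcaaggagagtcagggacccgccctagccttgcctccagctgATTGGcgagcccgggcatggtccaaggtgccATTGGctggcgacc
Insig1: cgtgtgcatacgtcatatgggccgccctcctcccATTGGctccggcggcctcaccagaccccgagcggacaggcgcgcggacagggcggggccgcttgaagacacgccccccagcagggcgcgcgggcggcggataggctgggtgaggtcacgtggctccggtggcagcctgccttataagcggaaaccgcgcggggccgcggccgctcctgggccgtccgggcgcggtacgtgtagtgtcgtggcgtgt
Lrp1: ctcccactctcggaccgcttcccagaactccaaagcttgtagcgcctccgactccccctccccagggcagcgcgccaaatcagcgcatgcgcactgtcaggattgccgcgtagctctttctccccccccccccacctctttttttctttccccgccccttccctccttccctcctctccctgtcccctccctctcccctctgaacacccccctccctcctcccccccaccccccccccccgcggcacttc
Hmgcs1 held 3 CCAAT boxes and the single sterol regulatory element, Idi1 held 2 CCAAT boxes, Insig1 held 1, and Lrp1 held no match to either motif.

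The table holds 2989 control and 1524 tetYAP 4W cell barcodes, with 9509885 and 6777210 unique molecular identifiers (UMIs, each standing for 1 captured transcript), and the libraries shared 0 barcodes. Hepatocyte-like clusters held 2701 control barcodes (90.4%) and 822 tetYAP 4W barcodes (53.9%), although the labels call all cells hepatocytes, and each of these clusters came wholly from 1 library. RNA of hepatocytes was found in every class. The 12 hepatocyte markers gave a median of 304 UMIs in control hepatocyte-like barcodes and 316.5 in the 22 control erythroid, B and T or NK-like barcodes, and 344 and 289 in the tetYAP 4W library. In hepatocyte-like barcodes the median mitochondrial share was 28.2% in control and 55.5% in tetYAP 4W. Endogenous and transgenic Yap1 cannot be separated here. Over all barcodes Yap1 had 155 and 128 UMIs (log2 ratio 0.21, interval -0.14 to 0.56), whereas its known target Cyr61 had 20 and 140 (3.30, 2.61 to 4.05). In hepatocyte-like barcodes Yap1 had 137 and 66 UMIs (0.23, -0.21 to 0.67) and Cyr61 16 and 83 (3.66, 2.88 to 4.53). Xist had 3 and 4859 UMIs over all barcodes and 4 Y-linked genes had 716 and 0. The sex of the animals and the genotype therefore cannot be told apart.

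In hepatocyte-like barcodes the synthesis and SREBP control genes were lower in tetYAP 4W and the uptake and transport genes mostly higher. Levels are counts per 1000000 UMIs of the class (CPM), and each log2 ratio is tetYAP 4W over control. The median log2 ratio of 10985 genes with at least 10 UMIs was -0.09, and values called relative are set against it. The median relative log2 ratio was -0.91 for synthesis (medians of the members' bounds, -1.41 to -0.53), -0.80 for SREBP control (-1.06 to -0.55) and 0.52 for uptake and transport (0.24 to 0.79). In this comparison 10 of the 30 members were at least 2-fold lower and 3 at least 2-fold higher on the relative scale, where 11.5% of all genes were lower and 21.1% higher by that size. All 10 belonged to synthesis or SREBP control, and all 3 to uptake and transport. The larger mitochondrial share of the tetYAP 4W barcodes moves with these ratios, and values with it limited are given below. With mitochondrial and the 50 most abundant genes left out of the total, the median over all genes was 0.42 and each ratio was higher by the same shift, which leaves the relative values as they are.

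**Figure D1:**
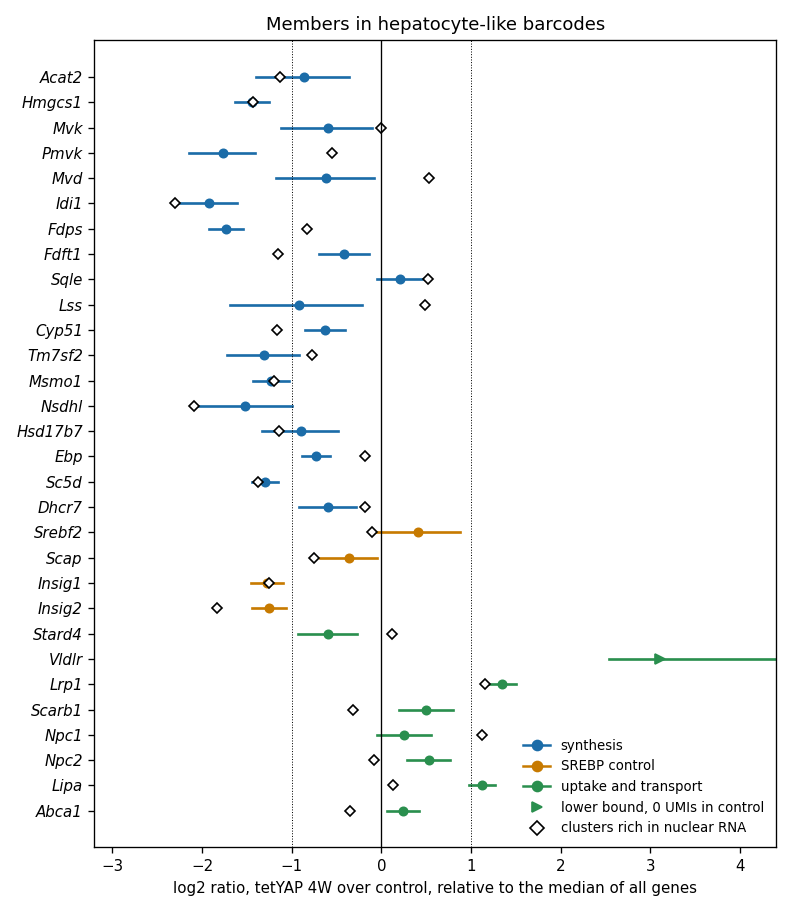
Log2 ratio of tetYAP 4W over control for each of the 30 members in hepatocyte-like barcodes, relative to the median of all genes (x axis, log2), with exact 95% counting intervals as lines; dotted lines mark 2-fold, the triangle for Vldlr is a lower bound, and open diamonds give the ratio in the clusters rich in nuclear RNA. Of the 18 synthesis genes 17 lie left of 0, with Sqle the exception, and Lrp1 and Lipa lie right of 2-fold.

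The first steps of synthesis lead from acetyl-CoA to mevalonate and its activated form. Acat2, which condenses 2 acetyl-CoA molecules, had 189 UMIs in control and 40 in tetYAP 4W, or 22.4 and 11.6 CPM. Hmgcs1, the cytosolic HMG-CoA synthase, had 1799 and 255 UMIs, or 213 and 73.7 CPM, a log2 ratio of -1.53 (-1.73 to -1.34). The mevalonate kinases differed in size. Pmvk, which adds the next phosphate after Mvk, had 73.2 and 20.2 CPM (-1.86, -2.23 to -1.497), whereas Mvk had 20.03 and 12.4 CPM (-0.69, -1.21 to -0.20). Mvd, the decarboxylase that makes isopentenyl diphosphate, had 17.4 and 10.7 CPM (-0.70, -1.26 to -0.18). All 5 intervals lay below 0, and Hmgcs1 and Pmvk passed 2-fold on the relative scale.

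The isoprenoid steps held the lowest ratio of all members. Idi1, the isopentenyl diphosphate isomerase, had 913 UMIs in control and 93 in tetYAP 4W, or 108 and 26.9 CPM, a log2 ratio of -2.01 (-2.33 to -1.70). Fdps, which makes farnesyl diphosphate, had 2199 and 255 UMIs, or 261 and 73.7 CPM (-1.82, -2.01 to -1.63). The steps that commit farnesyl diphosphate to sterols were closer to equal. Fdft1, the squalene synthase, had 57.8 and 40.8 CPM (-0.50, -0.79 to -0.23). Sqle, the squalene epoxidase and a rate-controlling step, had 50.8 and 55.2 CPM, and its interval of -0.13 to 0.37 includes 0. Lss, which closes the sterol ring, was thinly counted, with 98 and 20 UMIs (-1.01, -1.78 to -0.30).

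The steps from lanosterol to cholesterol were all lower. Sc5d, the sterol-C5-desaturase and the most abundant member in control, had 2939 and 462 UMIs, or 348 and 134 CPM (-1.38, -1.53 to -1.24). Msmo1, which removes the C4 methyl groups together with Nsdhl and Hsd17b7, had 166 and 66.8 CPM (-1.32, -1.52 to -1.11). Nsdhl had 29.98 and 9.83 CPM (-1.61, -2.17 to -1.09) and Hsd17b7 had 33.8 and 17.1 CPM (-0.98, -1.41 to -0.58). Tm7sf2, a C14 sterol reductase, had 47.2 and 17.9 CPM (-1.40, -1.81 to -1.01). Smaller ratios were found for Cyp51, the lanosterol demethylase, with 97.9 and 59.6 CPM (-0.72, -0.94 to -0.49), for Ebp, the sterol isomerase, with 214 and 121 CPM (-0.81, -0.97 to -0.66), and for Dhcr7, the last reductase, with 48.2 and 30.1 CPM (-0.68, -1.01 to -0.37). Because 3′ UMI counting does not scale with transcript length, levels of different genes can be set side by side as molecules captured, though capture may differ between genes.

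The SREBP control genes divided. Insig1, itself a known SREBP-2 target, had 1947 UMIs in control and 310 in tetYAP 4W, or 231 and 89.7 CPM, a log2 ratio of -1.36 (-1.54 to -1.19). Insig2, its paralog, which in liver is under other control, had 1635 and 265 UMIs, or 194 and 76.6 CPM (-1.34, -1.53 to -1.15). Scap had 43.0 and 31.5 CPM (-0.45, -0.77 to -0.14). Srebf2, which encodes SREBP-2, had 115 and 59 UMIs, or 13.6 and 17.1 CPM, and the interval of its log2 ratio, -0.15 to 0.79, includes 0. Both INSIG genes thus passed 2-fold on the relative scale and the genes of the sensor and of the factor did not.

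Among the uptake receptors, Lrp1, the remnant receptor, had 733 UMIs in control and 720 in tetYAP 4W from fewer barcodes, or 86.9 and 208 CPM, a log2 ratio of 1.26 (1.11 to 1.41). Vldlr, a lipoprotein receptor that is low in normal liver, had 0 UMIs in control, which allows up to 0.356 CPM at 3 UMIs (exact upper bound 0.437 CPM), and 10 in tetYAP 4W. Set against a floor of 3 UMIs per library this was at least 8.13-fold higher, and the counting interval of the log2 ratio reached down to 2.45. Scarb1, the HDL receptor SR-BI, had 30.8 and 41.1 CPM (0.41, 0.11 to 0.71). Lysosomal genes followed with Lipa, the acid lipase that frees cholesterol from its esters, at 105 and 215 CPM (1.04, 0.89 to 1.18). Npc2 had 47.3 and 64.2 CPM (0.44, 0.20 to 0.68) and Npc1, its partner in lysosomal export, had 34.8 and 39.0 CPM (0.16, -0.14 to 0.46). Abca1, which exports cholesterol to apolipoprotein A-I, had 97.6 and 109 CPM (0.16, -0.02 to 0.33). Stard4, a cytosolic sterol carrier and a known SREBP-2 target, had 45.5 and 28.3 CPM (-0.68, -1.02 to -0.36) and was the single member of the group below the median of all genes.

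Within a library, the synthesis genes varied little between hepatocyte-like clusters once mitochondrial UMIs were left out of the total. Their summed level was 2525 to 2557 UMIs per 1000000 non-mitochondrial UMIs in the control clusters 0, 1, 2 and 4, and 3055 (2839 to 3283) in the control cluster 11. It was 1732 (1644 to 1823), 1557 (1457 to 1662) and 1890 (1700 to 2095) in the tetYAP 4W clusters 3, 5 and 12, so all 5 control clusters were above all 3 tetYAP 4W clusters on this scale. The clusters of a library are not replicates. SREBP control genes overlapped, since cluster 12 at 731 (615 to 863) was as high as the control clusters 0, 1, 2 and 4 at 618 to 702. Uptake and transport genes were at 565 to 690 in these 4 control clusters and 1080 (953 to 1219) in cluster 11, against 1741, 1105 and 1775 in clusters 3, 5 and 12, so clusters 11 and 5 overlapped. Cluster 5 carried 6.90 UMIs of endothelial markers per barcode against 0.872 in cluster 3, and the part of this RNA in its values was not tested.

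**Figure D2:**
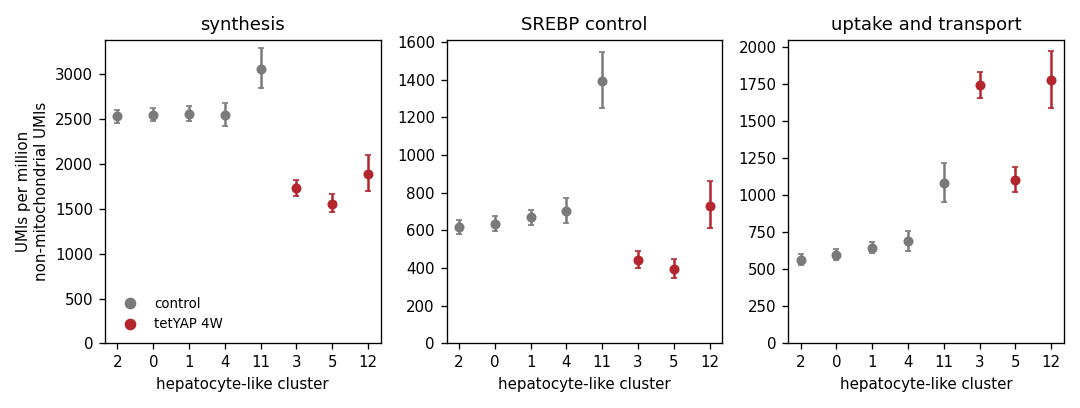
Summed level of each role group (y axis, UMIs per 1000000 non-mitochondrial UMIs, from 0) in the 8 hepatocyte-like clusters, grey for control and red for tetYAP 4W, with exact Poisson 95% intervals as bars. The synthesis sum is at 2525 or more in each control cluster and at 1890 or less in each tetYAP 4W cluster, while clusters 11 and 12 are high in SREBP control genes within their library.

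Limiting the mitochondrial share left the synthesis genes below the other genes on the relative scale, whereas uptake and transport genes came close to them. With only the 1667 control and 111 tetYAP 4W hepatocyte-like barcodes at or under 30% mitochondrial UMIs, all genes had a median log2 ratio of 0.99, and the relative median of the members was -1.26 for synthesis, -0.81 for SREBP control and 0.021 for uptake and transport. Before subtraction these medians were -0.27 (medians of the members' bounds, -0.99 to 0.35), 0.18 (-0.35 to 0.67) and 1.01 (0.35 to 1.53). The median bounds of the synthesis genes thus included 0 before the median of all genes was subtracted. They are medians over single genes and not an interval of the group. Genes with under 3 UMIs in the 111 tetYAP 4W barcodes were raised to the floor, which can raise the median of all genes and lower the relative values. This was not tested. Sqle, near equal in the full set, had a relative log2 ratio of -1.94 there, and Cyp51 one of -2.14. Lrp1 stood at 1.79 (1.48 to 2.09) before and 0.80 after the median was subtracted, and Lipa at 1.15 (0.82 to 1.48) and 0.16. Without cluster 3, whose barcodes had a median mitochondrial share of 60.8%, Lrp1 had a log2 ratio of 1.42 (1.22 to 1.62) and a relative one of 0.82, Lipa 0.99 (0.79 to 1.196) and 0.39, and the relative uptake and transport median was -0.029. The ratio of Lrp1 itself was thus no lower there, and its relative call was lost because the median of all genes stood at 0.60. In that set 0 members were 2-fold higher and 13 were 2-fold lower, where 20.8% and 14.5% of all genes were, and Vldlr had under 10 UMIs.

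The number of synthesis UMIs per barcode was lower in tetYAP 4W. Each barcode was thinned to 2000 UMIs, which left out 84 control barcodes and no tetYAP 4W barcode. The mean of the summed synthesis UMIs was 3.65 in control and 1.65 in tetYAP 4W (unthinned 5.69 and 3.31), and the median 3 and 1. Barcodes with no synthesis UMI made up 2.98% of control and 24.3% of tetYAP 4W. These 2000 UMIs include the mitochondrial ones, of which tetYAP 4W barcodes had more. Thinned to 1000 non-mitochondrial UMIs, a setting added after seeing the data, the synthesis means were 2.57 and 1.73, the medians 2 and 2, and the shares at 0 were 8.44% and 19.1%. At 2000 UMIs of all genes the means were 0.927 and 0.448 for SREBP control genes and 0.883 and 1.41 for uptake and transport genes, and at 1000 non-mitochondrial UMIs 0.677 and 0.455, and 0.632 and 1.55. The counts of synthesis UMIs had a single peak in each library.

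**Figure D3:**
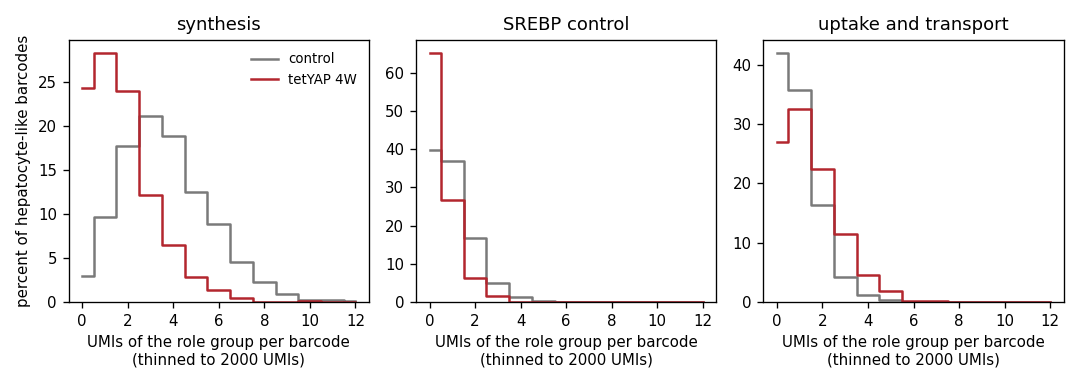
Percent of hepatocyte-like barcodes (y axis) by the number of UMIs of each role group per barcode after thinning to 2000 UMIs (x axis), grey for control and red for tetYAP 4W. The synthesis peak lies at 3 UMIs in control and at 1 in tetYAP 4W, and the uptake and transport line is shifted to higher counts in tetYAP 4W.

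Erythroid, B and T or NK-like barcodes should lack hepatocyte RNA, though such cells can make sterols. Per barcode, the synthesis genes were about as high in them as in hepatocyte-like barcodes. In control, their sum was 5.69 UMIs per barcode in hepatocyte-like barcodes, 6.36 in erythroid, B and T or NK-like, 6.70 in endothelial-like and 5.19 in macrophage-like barcodes, and in tetYAP 4W it was 3.31, 3.22, 3.31 and 2.27. Median depths of hepatocyte-like and erythroid, B and T or NK-like barcodes were 3096 and 4344 UMIs in control and 3978 and 4375 in tetYAP 4W. Their median mitochondrial shares were 28.2% and 20.7% in control and 55.5% and 24.7% in tetYAP 4W. Equal UMIs per barcode are therefore not equal shares of the non-mitochondrial RNA. Hmgcs1 was detected in 26.3% of tetYAP 4W hepatocyte-like and 26.0% of erythroid, B and T or NK-like barcodes, and Insig1 in 28.1% and 26.5%. These shares hardly exceed those of the erythroid, B and T or NK-like barcodes, where free RNA and the cells' own RNA were not told apart. The ratios above therefore cannot be assigned to the hepatocyte-like barcodes alone and may reflect RNA of the whole library. The interval of the level per barcode in hepatocyte-like barcodes lay above that of the erythroid, B and T or NK-like barcodes for 0 of the 18 synthesis and 0 of the 4 SREBP control genes in either library. In control this count decides little, because the erythroid, B and T or NK-like class holds 22 barcodes and its intervals are wide.

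Ratios below 0 were also found for the synthesis sum in other classes. The log2 ratio of the summed synthesis genes, relative to the median of all genes of the class, was -1.12 (-1.18 to -1.06) in hepatocyte-like barcodes. It was -1.35 (-1.66 to -1.04) in macrophage-like, -1.61 (-1.81 to -1.41) in endothelial-like and -0.38 (-0.64 to -0.105) in erythroid, B and T or NK-like barcodes. In the last class the median of all genes was itself at -0.65, and before subtraction the ratio was -1.03 (-1.29 to -0.76), beside -1.21 (-1.27 to -1.15) in hepatocyte-like barcodes. That class holds 22 control barcodes, and genes with under 3 control UMIs were raised to the floor. This lowers their ratios and can lower the median, while the summed ratio is not touched by it. The relative value of -0.38 therefore cannot be set against those of the other classes. Of the members with at least 10 UMIs, 11 of 24 were 2-fold lower in macrophage-like barcodes, where 10.1% of all genes were, and 17 of 27 in endothelial-like barcodes, where 12.6% were. Counts were small, with 26 macrophage-like and 60 endothelial-like barcodes in control. Among members called lower in macrophage-like barcodes, some relative intervals included 0, as for Sqle, and others did not, as for Hmgcs1. With the floor of 3 UMIs, neither class had a member 2-fold higher, where 9.45% and 8.04% of all genes were. The floor lowers the ratio of members with under 3 UMIs in control, so this count can miss higher members. Srebf2 in macrophage-like barcodes had 1 and 14 UMIs, or 9.15 and 26.0 CPM, and a relative log2 ratio of 0. In erythroid, B and T or NK-like barcodes 4 of 28 were 2-fold lower and 3 higher, near the 11% and 13.6% of all genes. Over all barcodes 21 members were 2-fold lower and 2 higher, against 19.3% and 26.4% of all genes.

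**Figure D4:**
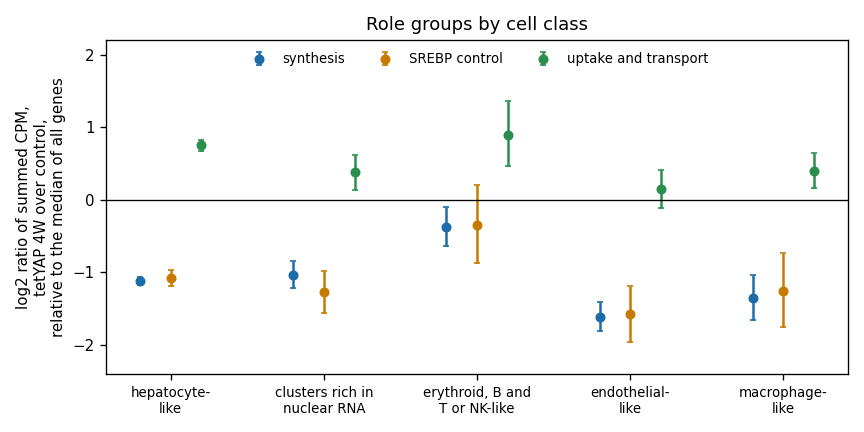
Log2 ratio of the summed CPM of each role group, tetYAP 4W over control, relative to the median of all genes of the class (y axis, log2), by class of barcodes (x axis), with exact 95% counting intervals. Synthesis lies below 0 in each class shown, from -1.61 in endothelial-like to -0.38 in erythroid, B and T or NK-like barcodes.

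Several uptake and transport genes differed between classes by more than counting error. In the tetYAP 4W library Lrp1 had 2.10 UMIs per barcode (1.84 to 2.39) in macrophage-like barcodes, 0.876 (0.813 to 0.942) in hepatocyte-like ones and 0.444 (0.361 to 0.540) in erythroid, B and T or NK-like barcodes. Abca1 followed the same order, with 1.22 (1.02 to 1.45), 0.457 (0.412 to 0.506) and 0.166 (0.117 to 0.229). In hepatocyte-like barcodes of this library 3 of the 8 genes, Lrp1, Abca1 and Lipa, had intervals above the erythroid, B and T or NK-like level, against 0 of 8 in control. The 2 libraries cannot be compared in this count, because the control class holds 22 barcodes against 223 and its intervals are wide. In control, Lrp1 was at 0.271 (0.252 to 0.292) in hepatocyte-like and 0.182 (0.0495 to 0.466) in erythroid, B and T or NK-like barcodes, and these intervals overlap.

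In tetYAP 4W, Npc2 was mainly found outside the hepatocyte-like barcodes, whereas in control these held 74.6% of its UMIs and 88.7% of all UMIs. It had 3.62 UMIs per barcode (3.28 to 3.999) in macrophage-like barcodes, 0.924 (0.802 to 1.06) in erythroid, B and T or NK-like and 0.270 (0.236 to 0.308) in hepatocyte-like barcodes of tetYAP 4W, and the last held 15.8% of its UMIs against 51.0% of all UMIs. A further 28.1% of Npc2 was in macrophage-like barcodes, and a cluster left unnamed, which had markers of macrophages and monocytes, held 30.7%. Scarb1 was at 0.543 (0.423 to 0.686) in endothelial-like and 0.505 (0.380 to 0.657) in macrophage-like barcodes, which overlap, against 0.173 (0.146 to 0.204) in hepatocyte-like ones. Lipa was at 1.32 (1.11 to 1.56) in macrophage-like, 1.24 (1.06 to 1.45) in endothelial-like, 0.905 (0.841 to 0.973) in hepatocyte-like and 0.623 (0.524 to 0.736) in erythroid, B and T or NK-like barcodes. Macrophage-like barcodes were 0.87% of the control and 7.15% of the tetYAP 4W library, and the part of their free RNA in the hepatocyte-like levels of these genes was not tested.

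**Figure D5:**
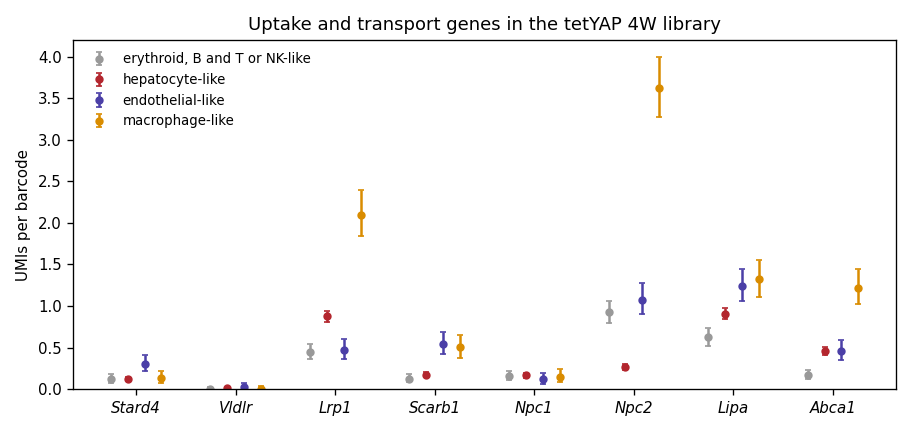
UMIs per barcode (y axis, from 0) of the 8 uptake and transport genes in 4 classes of the tetYAP 4W library, with exact Poisson 95% intervals as bars. Npc2, Lrp1 and Abca1 are highest in macrophage-like barcodes, while Lrp1 and Abca1 in hepatocyte-like barcodes exceed the erythroid, B and T or NK-like level.

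A pair of hepatocyte-like clusters was rich in Malat1, a nuclear RNA, at 4531 CPM in control cluster 11 (121 barcodes) and 14064 CPM in tetYAP 4W cluster 12 (78 barcodes), against 750.1 and 2024 CPM in all hepatocyte-like barcodes. In control, Insig1 was at 473 CPM in cluster 11 and 220 in the other hepatocyte-like barcodes, and Hsd17b7 at 83.4 and 31.5, while Fdps was at 135 and 266 and Ebp at 110 and 218. Relative to all genes, whose median was 0.93 in this contrast, the log2 ratio was 0.18 for Insig1, 0.48 for Hsd17b7 and -1.91 for both Fdps and Ebp. On that scale 0 of 29 members were 2-fold higher in cluster 11 and 7 were lower, where 19.5% and 18.5% of all genes were. For cluster 12 of tetYAP 4W, 2 of 30 were higher and 4 lower, where 19.8% and 18.8% of all genes were. Between these clusters of the libraries, Insig1 had 176 and 74 UMIs, a log2 ratio of -1.005 (-1.42 to -0.61), Insig2 had 111 and 31 (-1.60, -2.22 to -1.01), and Idi1 had 64 and 13 (-2.05, -3.04 to -1.18). Hmgcs1 had 111 and 41 (-1.19, -1.75 to -0.66) and Sc5d 169 and 65 (-1.13, -1.57 to -0.71). Lrp1 was higher, with 62 and 138 UMIs (1.40, 0.96 to 1.86). Relative to a median of all genes of 0.24, 11 of 29 members were 2-fold lower and 2 higher, Lrp1 and Npc1, where 16.9% and 17.4% of all genes were. Counts were small here, and before the median was subtracted the interval lay below 0 for 6 of the 18 synthesis genes (Hmgcs1, Idi1, Cyp51, Msmo1, Nsdhl and Sc5d) and included 0 for the other 12. It lay below 0 for both INSIG genes and included 0 for Srebf2 and Scap, and among uptake and transport genes it lay above 0 for Lrp1 and Npc1.

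Other genes of sterol handling and of fatty acid synthesis were set beside the members in hepatocyte-like barcodes. Of 26 other sterol genes with at least 10 UMIs, 1 was 2-fold lower and 8 higher, where 11.5% and 21.1% of all genes were, with a median relative log2 ratio of 0.44. Cd36, a scavenger receptor for fatty acids and oxidised lipoproteins, had 28 UMIs in control and 435 in tetYAP 4W, or 3.32 and 126 CPM (log2 ratio 5.24, 4.69 to 5.85). In tetYAP 4W, Cd36 was at 542 CPM in endothelial-like, 164 in macrophage-like and 85.9 in erythroid, B and T or NK-like barcodes. The part of free RNA in its hepatocyte-like level was not tested. Nceh1, a cholesteryl ester hydrolase, had 11.6 and 26.3 CPM (1.18, 0.75 to 1.61), and Mbtps1, the first protease to cut SREBP, had 14.3 and 28.6 CPM (0.998, 0.60 to 1.39). The sterol carriers Gramd1a (1.501, 0.68 to 2.33) and Stard3 (1.18, 0.33 to 2.02) had ratios above 0, and Stard5 had 42.4 and 18.8 CPM (-1.17, -1.58 to -0.79). Of 14 lipogenic genes, 1 was 2-fold lower and 2 higher, beside the same 11.5% and 21.1% of all genes, with a median of -0.30. Srebf1, which encodes SREBP-1, had 300 and 312 UMIs, or 35.6 and 90.2 CPM (1.34, 1.11 to 1.58), whereas Me1, the malic enzyme that supplies NADPH, had 116 and 17.1 CPM (-2.77, -3.17 to -2.39).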

How the data were processed

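Per the methods and labels, 3′ single-cell libraries of perfused livers were processed by the authors with Cell Ranger at default settings on mm10, down-sampled per condition and limited to barcodes of at most 7500 UMIs, and analysed with Seurat 3. The deposited values are raw counts of UMIs per gene and barcode. The methods name the same number of cells for each condition, but 2989 control and 1524 tetYAP 4W barcodes remain. Their lowest totals were 516 and 2355 UMIs. Barcodes lost to the limit of 7500 UMIs cannot be seen here, and their part in the class shares and ratios was not tested. Doublets were not called and remain, and reads shared with near-identical gene copies could not be recovered.

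Members and lists were chosen with earlier results of these data known, and the lists do not cover every gene of the pathway. Barcodes were clustered with scanpy 1.11.5 (2000 variable genes without the members and comparison lists, 20 principal components, 15 neighbours, Leiden resolution 0.8). A cluster was named where at least 3 markers of a class reached 10 UMIs and 3-fold the level of other barcodes of its library, otherwise hepatocyte-like where hepatocyte markers were present. Cluster 6 stayed unnamed.

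UMIs were summed per library and class. Ratios used a floor of 3 UMIs and exact conditional binomial intervals (scipy 1.17.1), levels exact Poisson intervals, and shares Clopper-Pearson intervals. Simulated Poisson counts with 200 changed genes placed 96.5% of them within their interval among 10979 genes of hepatocyte-like barcodes. This checks the calculation for counting error and does not cover variation between animals or cells. All members are named, and of the other lists those past 2-fold with at least 50 UMIs, at most 8 by size. TMM factors came from edgeR 4.0.16 on the deposited counts.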

Additional observations from a re-analysis of the deposited data

How the results depend on the processing

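No paired analysis was possible because each group has 1 library. Raw medians of synthesis, SREBP control and uptake and transport genes in hepatocyte-like barcodes were -0.995, -0.89 and 0.43. With a total that leaves out mitochondrial and the 50 most abundant genes they were -0.49, -0.39 and 0.93, and the median of all genes moved from -0.09 to 0.42. With barcodes of at most 30% mitochondrial UMIs the raw values were -0.27, 0.18 (the sign of SREBP control turned) and 1.01, the relative uptake and transport value 0.021, and 0 members were 2-fold higher. Over all barcodes the relative values were -1.77, -1.58 and 0.23, the raw uptake and transport value 0.83, and 21 members were 2-fold lower. Among 3 sets of barcodes added after seeing the data, the clusters rich in nuclear RNA gave 0.12 for relative uptake and transport, and leaving out the tetYAP 4W cluster with most mitochondrial RNA gave -0.50 raw and -1.10 relative for SREBP control, -0.029 for relative uptake and transport and 0 members 2-fold higher. The cause was not tested. In sets with few tetYAP 4W barcodes the floor of 3 UMIs can raise the median of all genes, and its part in the relative values was not tested. edgeR TMM, equal weight per barcode, thinning, a minimum of 50 UMIs, an offset of 0.5 UMIs, Leiden resolutions of 0.4 and 1.2, clustering with the members, and leaving out the cluster with endothelial RNA kept each group median within the bounds given for it, with 10 to 12 members 2-fold lower and 2 or 3 higher where these were counted. Of the 13 members past 2-fold, 8 of the 12 measured stayed past it in the clusters rich in nuclear RNA and 10 of 12 at no more than 30% mitochondrial UMIs. Counting depth limits the thinly counted members, such as Lss, Mvd, Nsdhl, Srebf2 and Vldlr.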
